A study of Mus musculus with 10 samples.

Results

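Amino acids cross the plasma membrane of tumour cells on a small number of carrier proteins, and messenger RNA for 10 of these carriers was followed in 10 mouse lines of small cell lung cancer. The carriers were Slc1a1, Slc1a2, Slc1a3, Slc1a4, Slc1a5, Slc3a2, Slc7a1, Slc7a5, Slc7a11 and Slc38a2, taken by gene symbol from the annotation of the array. They have 25 probes among the 41174 probes of the array, and the probes that carry a name stand for 21211 genes. The carriers were chosen by their known roles with the measured differences between Mes and Epi lines already in view, so their own values are given as a description and without a p-value.

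The lines were labelled as non-NE small cell lung cancer, where NE is the usual short form of neuroendocrine, and 5 were named Mes and 5 Epi. The labels do not spell out the names Mes and Epi. The genetic background of all lines, Mes and Epi alike, is given as RbL/L, Trp53L/L, and they share loxP-flanked alleles of both genes in the usual reading of that notation. Every line was grown in RPMI1640 medium with 10% fetal bovine serum and received no treatment. Each line was expanded from a single picked clone, per the series text, and was measured on 1 Agilent 1-colour array, so a line stands for a clone and not for a whole tumour. The labels do not say which lines came from separate tumours, and the p-values therefore cover the spread among lines and nothing wider.

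Levels are given as log2 of the quantile-normalized processed signal, on which a difference of 1 is a doubling. A level of one probe cannot be set against that of another, so only lines are compared. Between 24871 and 26515 probes per array (60.4% to 64.4%) were well above background, and no spot was saturated. Arrays correlated at 0.948 to 0.986 within Mes, at 0.959 to 0.984 within Epi and at 0.902 to 0.939 between the groups, over the tested probes. The arrays lay on 3 slides. Slide 1 held Epi1, Epi3, Epi4 and Epi5, slide 2 held Mes3, Mes4 and Epi2, and slide 3 held Mes1, Mes2 and Mes5, so that slide and group are largely joined. All 7 markers of the non-neuroendocrine state, Rest and Yap1 among them, were above background in every line. Of 10 neuroendocrine markers, Neurod1, Insm1 and Chgb were above background on no array, while 4 were above it in all lines of both groups. Of 7 epithelial markers, Epcam and Cldn4 were above background on no array. Krt18 and Krt19 were above it on 5 Epi arrays and on 4 and 2 Mes arrays, Krt8 on 4 Epi arrays and Cdh1 on 3, with both on 0 Mes arrays. Cldn7 was above it on 4 arrays of each group. The log2 of the summed signal of the list was 4.49 to 5.92 in Mes and 5.28 to 9.84 in Epi.

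The carriers fall into families with different tasks. Slc1a1, Slc1a2 and Slc1a3 import glutamate and aspartate, driven by sodium, and the last 2 are best known from astrocytes, which clear glutamate from synapses. Slc1a4 and Slc1a5 belong to the same family but exchange neutral amino acids such as alanine, serine, cysteine and glutamine. Slc3a2, also called CD98, is the heavy chain that brings light chains such as Slc7a5 and Slc7a11 to the membrane. Slc7a5 exchanges large neutral amino acids such as leucine, and Slc7a11, called xCT, exports glutamate in return for cystine, the source of cysteine for glutathione. Slc7a1 imports arginine and lysine, and Slc38a2 imports neutral amino acids together with sodium. When amino acids run short, the kinase Eif2ak4 slows translation and raises the factor Atf4, and several of these carriers are among the known targets of Atf4.

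Because Atf4 binds a short composite element, the promoter windows of the carriers were searched for it. A window holds 250 bases before and 50 after the start site in RefSeq, on GRCm38.p6. The table held 9 windows for 8 of the 10 carriers, with none for Slc1a5 and Slc7a5. The element was searched on both strands as TGATGNAA, which occurs in 3.97% of all 32851 windows of that length. It was found in the windows of 2 carriers. Slc7a11, which lies on the minus strand at chr3:50443564-50443863, has 2 matches, at -66 to -59 on the strand of the gene and at -47 to -40 on the other strand. Slc1a4, on the minus strand at chr11:20332664-20332963, has 1 match across the start site, on the other strand. These windows are printed 5′ to 3′ on the strand of the gene, since they alone among the 9 windows hold the element, and capitals mark the matches.
Slc7a11: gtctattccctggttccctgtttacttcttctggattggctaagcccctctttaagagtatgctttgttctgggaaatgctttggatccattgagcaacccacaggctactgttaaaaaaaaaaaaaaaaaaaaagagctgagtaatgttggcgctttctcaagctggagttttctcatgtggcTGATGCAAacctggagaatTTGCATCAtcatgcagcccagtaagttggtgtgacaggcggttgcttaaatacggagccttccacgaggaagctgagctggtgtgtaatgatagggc
Slc1a4: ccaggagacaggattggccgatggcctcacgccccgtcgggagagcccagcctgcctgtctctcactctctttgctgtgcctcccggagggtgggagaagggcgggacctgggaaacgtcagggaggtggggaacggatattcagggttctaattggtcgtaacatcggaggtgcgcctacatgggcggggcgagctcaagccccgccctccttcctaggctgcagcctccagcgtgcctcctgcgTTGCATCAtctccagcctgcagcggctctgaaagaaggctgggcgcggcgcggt
The antioxidant response element bound by Nfe2l2 was searched as TGACNNNGC, which occurs in 12.4% of all windows. It was found in the window of Slc38a2 and in 1 of the windows of Slc7a1. The E-box CACGTG, found in 7.15% of all windows, was in none of the 9. No match of the 3 motifs overlapped another. A match describes letters and does not show binding, and a known amino acid response element of Slc38a2 lies in an intron, outside the window searched.

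Slc1a3, the glutamate and aspartate carrier also called GLAST, differed most between the groups among the tested carriers. On its brightest probe, A_51_P268697 (mm9 chr15:8584236-8584295, minus strand), its level was 4.71 in Mes1, 5.19 in Mes2, 4.69 in Mes3, 8.18 in Mes4 and 6.70 in Mes5. On the same probe it was 13.02 in Epi1, 10.82 in Epi2, 11.50 in Epi3, 10.95 in Epi4 and 11.62 in Epi5. Every Epi line was above every Mes line. The gap between the lowest Epi line and the highest Mes line was wider than the range within Epi but narrower than that within Mes. The means were 5.90 ± 1.52 (SD, n = 5) in Mes and 11.58 ± 0.88 (SD, n = 5) in Epi. The difference, Mes minus Epi, was -5.69 (SE 0.69), or 51.5-fold in linear signal. By the size of its difference the gene stood 64th of 13194 tested genes, and 37th among those lower in Mes.

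The other probes of Slc1a3 gave nearly the same order of lines. On the probe at mm9 chr15:8630573-8630632 the levels were 3.72, 4.65, 3.68, 8.02 and 6.51 in Mes1 to Mes5 and 11.70, 9.64, 10.68, 10.14 and 10.68 in Epi1 to Epi5. The difference there was -5.25 (SE 0.80). The probe at mm9 chr15:8636825-8636884 was above background on 2 of the 5 Mes arrays and on all 5 Epi arrays. Its levels were 0.48, 1.72, 0.56, 4.85 and 3.75 in Mes1 to Mes5 and 8.91, 6.98, 7.84, 7.20 and 7.90 in Epi1 to Epi5. The Epi mean was at least 27.0-fold higher there. Mes4 was the highest Mes line and Mes5 the next on every one of the 3 probes, while Mes1 and Mes3 stayed lowest. Slide 2, which holds Mes3, Mes4 and Epi2, gave -4.38 for the brightest probe.

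**Figure D1:**
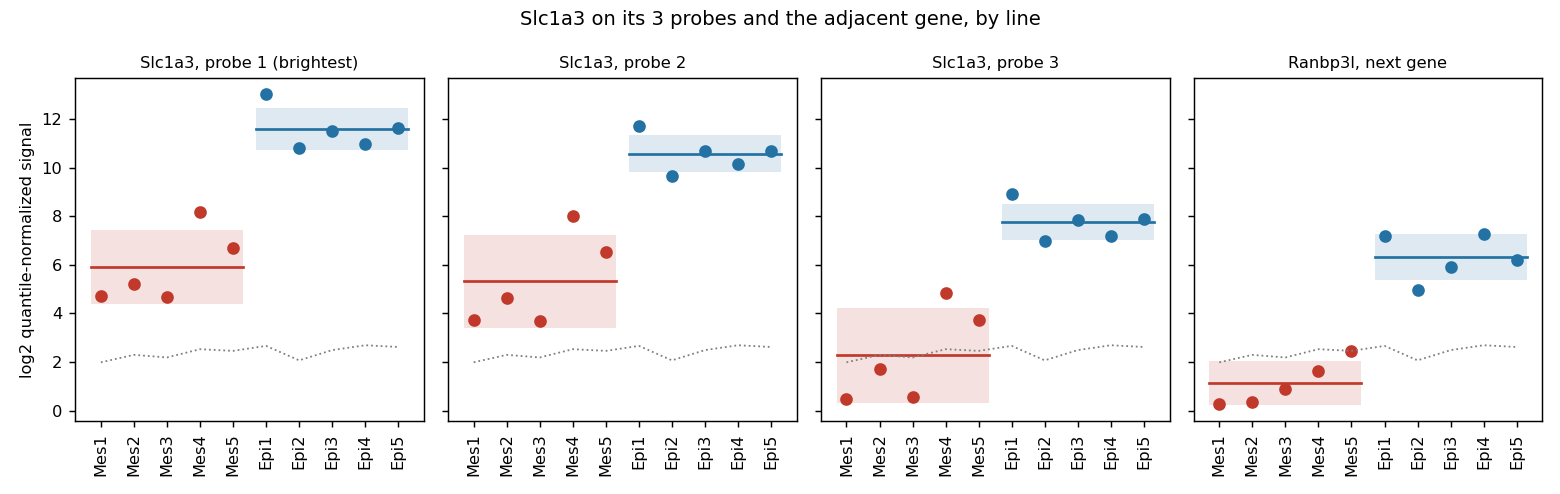
Level of Slc1a3 on its 3 probes, ordered along the chromosome, and of the adjacent gene Ranbp3l in each line. The vertical axis is log2 quantile-normalized signal, points are lines, lines and bands are the group mean ± SD (n = 5), and the dotted line is the lowest signal called above background on each array. On the brightest probe the Mes lines sit between 4.69 and 8.18 and the Epi lines between 10.82 and 13.02.

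The remaining glutamate importers were dim. Slc1a1, called EAAC1, was above background on no array on either of its 2 probes, with levels of 0.08 to 0.94 in Mes and 0.08 to 1.09 in Epi on the brighter one. Slc1a2, called GLT-1, has 4 probes and was above background in 1 line, Epi5, on 2 of them. There its level in Epi5 was 4.57 on A_51_P179878 and 3.74 on A_52_P168496. On the latter probe the Mes lines read 0.35, 0.35, 1.004, 0.42 and 0.40 and Epi1 to Epi4 read 0.85, 2.19, 1.65 and 2.58. These 2 genes had no probe above background on all arrays of a group, so they were left out of the fit. Since Slc1a2 and Slc1a3 are carriers of astrocytes, the astrocyte and glia markers are given beside them. Of 8 such markers Gfap, Aqp4 and Fabp7 were above background on no array, and the log2 of the summed signal of the list was 6.32 to 8.90 in Mes and 6.83 to 9.20 in Epi.

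Of the 10 carriers, 8 had a tested probe, and 18 of the 25 probes were tested. Slc1a3 alone had a representative probe past the adjusted threshold of 0.05, lower in Mes. Over the array 28.5% of tested genes passed it, 16.2% higher and 12.3% lower in Mes. By single probes 4 of the 18 passed, namely the 3 of Slc1a3 and 1 of Slc38a2, beside 27.6% of all tested probes. The groups did not overlap for Slc1a3 and Slc38a2, beside 18.9% of all tested genes. The choice of the carriers used these values, so nothing is read from the counts. The median difference of the 8 tested carriers was 0.24, beside 0.04 over all tested genes.

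Slc1a4, the carrier ASCT1 (brightest probe at mm9 chr11:20202533-20202592), read 10.03, 11.63, 11.08, 10.76 and 9.96 in Mes1 to Mes5 and 9.65, 10.19, 10.32, 10.36 and 10.32 in Epi1 to Epi5. Mes2, Mes3 and Mes4 were above all Epi lines, while Mes1 and Mes5 lay within the Epi range. The difference was 0.52 (SE 0.31). The other probe read 9.59, 10.82, 10.48, 10.13 and 9.21 in Mes and 8.66, 9.28, 8.96, 9.49 and 9.40 in Epi, a difference of 0.89 (SE 0.30), and there Mes5 alone lay within the Epi range. Slc1a5, the glutamine carrier ASCT2, has 1 probe (mm9 chr7:17383359-17383418) and read 10.92, 12.30, 11.54, 11.07 and 10.71 in the Mes lines and 10.59, 11.62, 10.57, 10.98 and 10.45 in the Epi lines. The groups overlapped, with a difference of 0.47 (SE 0.32). Mes2 was the highest of all lines for both exchangers.

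The heavy chain Slc3a2 (mm9 chr19:8782189-8782248) read 13.62, 15.32, 14.42, 14.36 and 13.62 in Mes1 to Mes5 and 14.92, 14.61, 14.60, 14.17 and 14.21 in Epi1 to Epi5. The Mes lines enclosed the whole Epi range, and the difference was -0.24 (SE 0.31), with -0.62 (SE 0.28) on the other probe. That probe read 8.22, 9.46, 8.996, 8.82 and 7.91 in Mes and 9.53, 9.33, 9.59, 9.09 and 8.95 in Epi, so that Mes2 and Mes3 reached into the Epi range and the other Mes lines lay below it. Its light chain Slc7a5, known as LAT1 (mm9 chr8:124405142-124405201), read 9.30, 10.99, 10.95, 10.44 and 9.48 in Mes and 11.04, 10.89, 10.50, 10.02 and 9.37 in Epi. Both groups covered almost the same range, and the difference was -0.13 (SE 0.42).

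The cystine and glutamate exchanger Slc7a11 varied most among the lines of a group after Slc1a3. On its brightest probe (mm9 chr3:50169700-50169759) it read 6.50, 8.26, 7.34, 6.50 and 6.09 in Mes1 to Mes5 and 7.09, 7.83, 5.42, 5.88 and 4.36 in Epi1 to Epi5. The Epi lines alone, with Epi2 on top and Epi5 at the bottom, covered a wider range than the Mes lines. The difference was 0.82 (SE 0.64), and the other 2 tested probes gave 0.85 and 0.89. On the last of these 4 of 5 Epi arrays were above background, and the remaining probe of the gene was above it on no array. Within slide 2 the sign turned, to -0.91, where Epi2 is the only Epi line.

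Slc7a1, the arginine and lysine carrier CAT1 (mm9 chr5:149138970-149139003), read 10.88, 12.57, 11.79, 11.74 and 11.12 in Mes and 11.94, 11.54, 11.62, 11.72 and 11.21 in Epi. The Mes lines lay on both sides of the Epi lines, and the difference was 0.01 (SE 0.29). Slc38a2, the sodium-coupled carrier SNAT2 (mm9 chr15:96518491-96518550), read 13.76, 13.96, 14.35, 13.72 and 13.96 in Mes and 13.62, 13.59, 13.15, 13.67 and 13.40 in Epi. Every Mes line was above every Epi line, though Mes4 and Epi4 lay closer together than the SD of either group. The difference was 0.46 (SE 0.16), and its 4 probes gave 0.36 to 0.67. The groups stayed apart on 3 of the 4 probes, though on 1 of these Mes4 (11.632) and Epi4 (11.6317) were almost equal. The probe with the widest difference, 0.67 (SE 0.19), read 10.52, 10.65, 10.87, 10.49 and 10.85 in Mes and 9.71, 10.11, 9.51, 10.46 and 10.26 in Epi. Mes3 was the highest Mes line and Epi3 the lowest Epi line on all 4 probes. Within slide 2 the differences were 0.73 for Slc1a4, -0.32 for Slc1a5, -0.22 for Slc3a2, -0.20 for Slc7a5, 0.23 for Slc7a1 and 0.44 for Slc38a2, so that Slc1a5 also turned its sign.

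**Figure D2:**
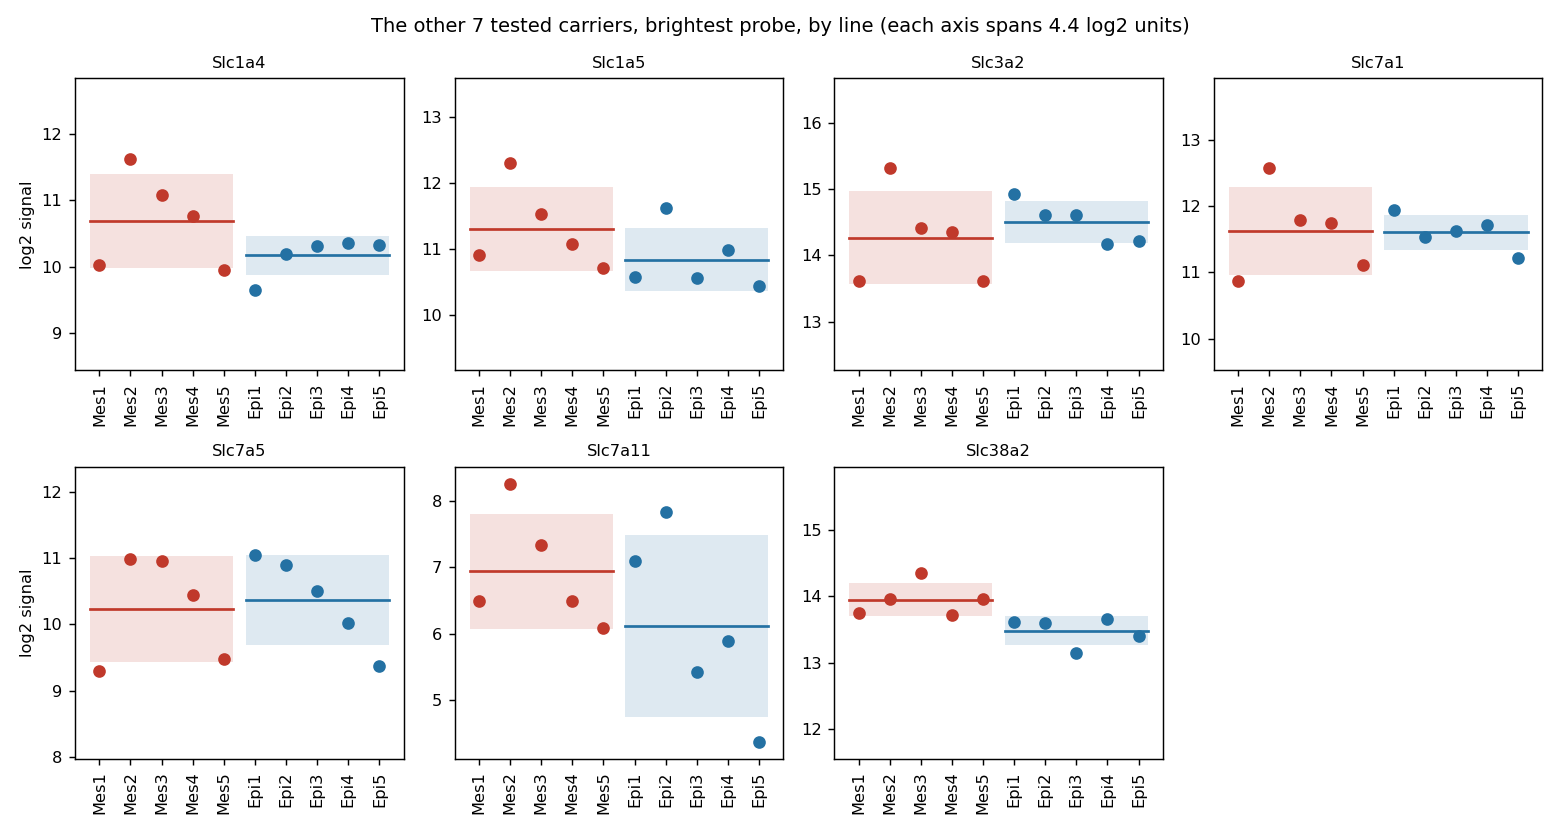
Level of the other 7 tested carriers on their brightest probe in each line, as log2 quantile-normalized signal. Points are lines, and lines and bands are the group mean ± SD (n = 5). Mes2 is the highest Mes line for 6 of the 7, and the groups stay apart only for Slc38a2.

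Among the Mes lines, most of the 7 carriers other than Slc1a3 had their highest level in the same line, while the Epi lines had no shared top. This order was described after the values were seen and has no test. Mes2 was the highest Mes line for 6 of them (85.7%), where it was highest for 25.3% of all tested genes. Mes1 and Mes5 were lowest for 3 each, and Epi5 was the lowest Epi line for 4 of 7. The highest Epi line was Epi1 for 3 carriers, Epi2 for 2 and Epi4 for 2. Against the mean of its own group Mes2 had a median of 0.95 over the 7 carriers, Mes3 of 0.39, Mes4 of 0.07, Mes1 of -0.65 and Mes5 of -0.65. Mes2 and Mes3 were above the group mean for all 7, and Mes1 for none. The Epi medians were 0.33 in Epi1, 0.11 in Epi2, 0.01 in Epi3, 0.11 in Epi4 and -0.39 in Epi5. In the 25 genes of the amino acid starvation response, Mes2 was the highest Mes line for 21 of 25 (84%) and Mes5 the lowest for 19 of 25 (76%, beside 19.6% of all tested genes). Epi2 was the highest Epi line for 17 of 25 (68%, beside 28.6%), unlike its place among the carriers, and Epi4 was the lowest for 10. Whether the carriers and the response genes order the lines alike was not tested. Genes share arrays and are not independent of each other.

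**Figure D3:**
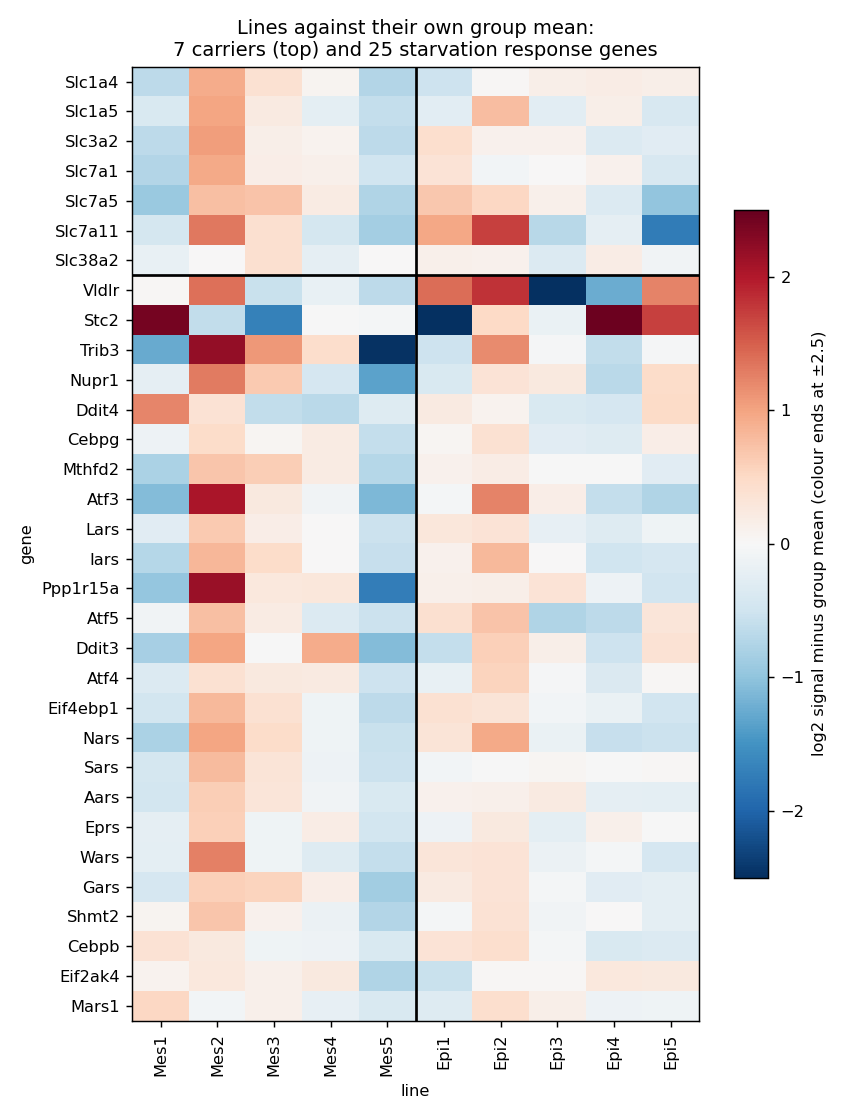
Difference of each line from the mean of its own group in log2 signal for 7 carriers (upper block) and 25 starvation response genes (lower block), red above and blue below the group mean, with colours ending at a fixed value. Mes2 is above its group mean for 7 of 7 carriers and 23 of 25 response genes, and Mes5 is above it for 1 and 0.

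Few of the response genes passed the test between the groups. Of 25 tested, 4 were higher in Mes and none lower at an adjusted p under 0.05 (limma, Benjamini-Hochberg over all tested probes), which is 16% beside 28.5% of all genes. The median difference was 0.78, with 23 of 25 above 0, beside 0.04 over all genes. Ddit4, an inhibitor of the kinase complex mTORC1, rose by 1.17 (SE 0.36, adjusted p = 0.0348). Cebpg, a dimer partner of Atf4, rose by 1.06 (SE 0.22, adjusted p = 0.00644). Mthfd2, a mitochondrial folate enzyme, was higher by 0.996 (SE 0.30, adjusted p = 0.0333), and Lars, the leucyl-tRNA ligase, by 0.93 (SE 0.23, adjusted p = 0.0153). The Mes lines of these 4 genes were all above the Epi lines. Atf4 read 12.45, 13.18, 13.03, 13.01 and 12.27 in Mes and 11.94, 12.69, 12.09, 11.76 and 12.17 in Epi, a difference of 0.66 (SE 0.23, adjusted p = 0.0541). The call of Ddit4 ended without Mes2, Epi2, Epi3 or Epi4 (adjusted p up to 0.0806) and that of Mthfd2 without any of 6 lines, namely Mes2, Mes3, Mes4, Epi3, Epi4 and Epi5 (up to 0.0778). Atf4 passed without Mes1 (0.0416), Mes5 (0.0303) or Epi2 (0.0218). The count of 4 became 2 without Mes2, Epi3 or Epi4 and 7 without Mes5.

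Slc1a3 was not alone in its stretch of the chromosome. Ranbp3l, the next protein-coding gene on one side, was above background on all 5 Epi arrays and on none of the Mes arrays. It read 0.29, 0.37, 0.91, 1.64 and 2.44 in Mes1 to Mes5 and 7.20, 4.98, 5.91, 7.28 and 6.21 in Epi1 to Epi5. The Epi mean of Ranbp3l was at least 16.2-fold higher (measured difference -5.18). The gene entered the fit through its Epi arrays alone, and each Mes value lay below the lowest signal called above background on its array. No p-value is therefore given for it. Nipbl, the nearest tested gene on the other side with 1 protein-coding gene between, read 10.60 in Mes and 10.83 in Epi on average. The difference of Nipbl was -0.23 (SE 0.20, adjusted p = 0.415, limma). Of the other neighbours examined, Gdnf differed by 1.11 (SE 0.39, adjusted p = 0.0581), and Wdr70, Nup155, Cplane1, Nadk2, Skp2, Lmbrd2 and Prlr had differences between -0.17 and 0.44 that did not pass either. Ranbp3l and these neighbours were looked at after the values of Slc1a3 had been seen.

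Epi1, the line with the most Slc1a3 signal, stood apart for the whole neighbourhood. Of the 41 other tested genes within 5 Mb of the Slc1a3 probe, 38 were higher in Epi1 than in every other Epi line, beside 22.9% of all tested genes. Their median in Epi1 was 1.39 above the mean of the other 4 Epi lines. For Slc1a3 itself that value was 1.80. In steps of 10 Mb the median was 1.58 over 20 genes before the probe and 1.13 over 22 genes after it. It was 0.05 over the 11 genes of the next step and between -0.29 and -0.06 in the steps beyond. Over all 542 tested genes of the chromosome it was -0.13. Mes4, the highest Mes line for Slc1a3, was 2.86 above the other Mes lines for that gene, while its median over the 41 neighbours was -0.09. Mes5 was 1.01 above the other Mes lines for Slc1a3, with a median of 0.39 over the 41 neighbours and of 0.39 over the chromosome. Without Epi1 the Epi mean of Slc1a3 was 11.22 ± 0.40 (SD, n = 4) and the difference -5.33. The part of DNA copies in these values was not tested.

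**Figure D4:**
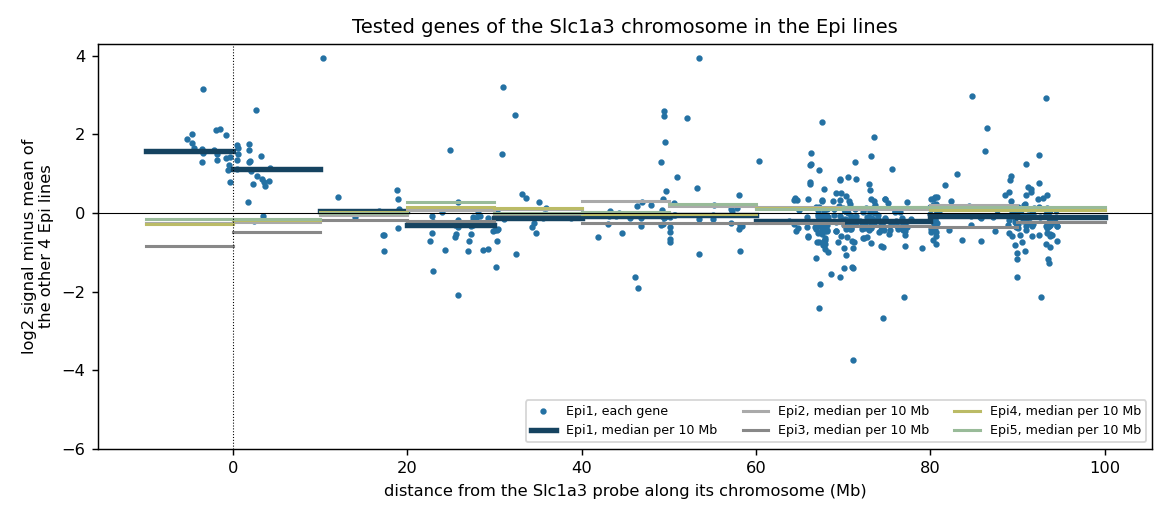
Tested genes of the chromosome of Slc1a3 by distance from its brightest probe in Mb (horizontal) and by log2 signal in Epi1 minus the mean of the other 4 Epi lines (vertical, points). Horizontal bars are medians per 10 Mb of each Epi line against the other 4. The Epi1 medians are 1.58 and 1.13 on the sides of the probe and near 0 further along.

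Other amino acid carriers were compared as a list of 52 genes. On the array were 51 of them, 37 were above background on at least 1 array, and 24 were tested. In Mes 1 was higher and 4 were lower, which is 20.8% beside 28.5% of all genes, and the median difference was -0.10. Slc38a1, the glutamine carrier SNAT1 whose gene lies beside Slc38a2 with no protein-coding gene between them, read 13.41, 14.26, 14.06, 13.26 and 13.72 in Mes1 to Mes5. In Epi1 to Epi5 it read 10.46, 11.42, 10.23, 8.98 and 10.80. The groups stayed far apart, at 13.74 ± 0.42 (SD, n = 5) and 10.38 ± 0.90 (SD, n = 5), and Slc38a1 was higher in Mes by 3.36 (SE 0.40, adjusted p = 0.000545, limma). The arginine and lysine carrier Slc7a2, a relative of Slc7a1, was lower in Mes by a difference of -2.29 (SE 0.52, adjusted p = 0.0102). Its levels were 6.73, 4.68, 3.65, 5.79 and 4.84 in Mes and 8.04, 7.89, 7.44, 6.51 and 7.26 in Epi, and Mes1 lay above the lowest Epi line. Slc43a1, a carrier of large neutral amino acids, differed by -1.31 (adjusted p = 0.0316). Slc6a7, a proline carrier, was above background on 3 of 5 Mes arrays and was at least 2.56-fold higher in Epi (adjusted p = 0.0423). The last gene past the threshold was the taurine carrier Slc6a6, at -0.74 (adjusted p = 0.021), named because the count is small. Slc43a1 and Slc6a7 each lost the call without any of 7 lines, namely Mes1, Mes2, Mes3, Epi1, Epi2, Epi3 and Epi5 for the first (adjusted p up to 0.0751) and Mes1, Mes2, Mes3, Mes4, Epi3, Epi4 and Epi5 for the second (up to 0.0974). The call of Slc6a7 also ended with a floor of 16 (-0.45, adjusted p = 0.175) and with normexp background correction (-0.11, adjusted p = 0.147), where the measured difference is below the bound, as well as with 75th percentile scaling (0.0509) and no filter on dim probes (0.0798). The count of 5 became 3 without Mes2, Mes3, Epi3, Epi4 or Epi5, and 3 with the replicate number as a block.

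Few of the enzymes that make and use glutamate passed the test. Of 28 genes 26 were tested, with 1 higher and 2 lower in Mes (11.5% beside 28.5%) and a median difference of 0.11. Psph, the last enzyme of serine synthesis, was higher in Mes by 1.20 (SE 0.34, adjusted p = 0.0258, limma). Bcat2, which moves the amino group of leucine and its relatives onto a keto acid to form glutamate, differed by -0.76 (SE 0.19, adjusted p = 0.0145). Got2, the mitochondrial aspartate aminotransferase, differed by -0.59 (SE 0.17, adjusted p = 0.0246). Glutamine synthetase Glul differed by -0.24 (adjusted p = 0.235) and asparagine synthetase Asns by 0.50 (adjusted p = 0.22). The widest differences of the list did not pass, at 2.53 (SE 1.35, adjusted p = 0.186) for Abat, which degrades GABA, and -2.004 (SE 0.77, adjusted p = 0.0775) for Prodh, which degrades proline. Both were picked out after their values were seen. Abat was above background on 4 of 5 Epi arrays. The call of Psph ended without Mes3, Epi3 or Epi5 (up to 0.064) and that of Got2 without Mes3, Mes4, Mes5 or Epi4 (up to 0.0619). Without Mes3 the count of 3 became 1.

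Genes around glutathione and Nfe2l2 moved in both directions. Of 22 genes for glutathione synthesis and targets of Nfe2l2, 18 were tested, and 4 were higher and 4 lower in Mes (44.4% beside 28.5%), with a median of -0.13. Gclc, the catalytic subunit of the enzyme that joins cysteine and glutamate, read 11.52, 11.89, 11.84, 11.77 and 11.92 in Mes and 11.20, 11.27, 10.95, 10.90 and 10.14 in Epi. All Mes lines were above all Epi lines, by 0.89 on average (SE 0.21, adjusted p = 0.0118, limma). Its regulatory partner Gclm differed by -0.04 (adjusted p = 0.908). Cth, which makes cysteine inside the cell, was higher in Mes by 2.37 (SE 0.72, adjusted p = 0.0331), with Mes2 at 13.84 and Mes5 at 9.61. Ggt7, a relative of the glutathione-cleaving gamma-glutamyltransferases, was higher by 3.06 (SE 0.72, adjusted p = 0.012). The remaining gene higher in Mes was Keap1, the inhibitor of Nfe2l2.

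The 4 genes of that list that were lower in Mes included known targets of Nfe2l2. Of the 18 tested genes of the list, 8 had a positive difference, Gclc among them, and 10 a negative one. Targets of Nfe2l2 were not counted apart from the other genes, and the activity of Nfe2l2 was not tested. Osgin1, an oxidative stress gene, differed by -2.69 (SE 0.36, adjusted p = 0.000896, limma) and Hmox1, which degrades heme, by -1.99 (SE 0.39, adjusted p = 0.00544). Both had no overlap between the groups. Srxn1 and Mgst1 were the other genes of the list that were lower. Nfe2l2 itself differed by 0.00 (adjusted p = 0.999), and Chac1, which degrades glutathione and is a target of Atf4, by 1.19 (SE 0.54, adjusted p = 0.125). Chac1 passed without Mes5 (1.67, adjusted p = 0.0127). The call of Cth ended without Mes2, Mes3, Epi3, Epi4 or Epi5 (up to 0.0772).

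Amino acid sensing by mTORC1 was followed in 34 genes, of which 33 were tested. In Mes 6 were higher and 4 lower (30.3% beside 28.5%), with a median difference of 0.01. Sesn2, the leucine sensor, read 12.03, 13.53, 13.09, 12.72 and 11.02 in Mes and 10.73, 11.16, 10.39, 9.83 and 10.13 in Epi. It was higher in Mes by 2.03 (SE 0.44, adjusted p = 0.00835, limma), although Mes5 lay below Epi2. The GATOR1 subunit Nprl2 was higher by 1.19 (SE 0.13, adjusted p = 0.000428). Kptn, of the KICSTOR complex that anchors GATOR1, differed by -1.51 (SE 0.24, adjusted p = 0.00206), and the GATOR2 subunit Sec13 by -0.84 (SE 0.19, adjusted p = 0.0106). The kinase Mtor differed by 0.08 (adjusted p = 0.844), but by 0.64 (adjusted p = 0.0185) as the mean over its probes.

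Glutamate receptors were largely dark. Of 26 listed genes 13 were above background on at least 1 array, and 5 were tested. None passed the adjusted threshold in limma, and 0 of 5 had an unadjusted p under 0.05. Grik5, a kainate receptor subunit, differed by -0.44 (SE 0.21, adjusted p = 0.138) and passed without Mes1 (-0.60, adjusted p = 0.0228). Grin1, the shared subunit of NMDA receptors, differed by 0.29 (adjusted p = 0.128).

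Proteins known to bind or regulate the carriers were followed in 11 genes. Of these, 10 were tested, 9 had a negative difference, and 1 was called lower (10% beside 28.5%), with a median of -0.55. That gene was Bsg, a chaperone of membrane carriers, at -0.85 (SE 0.26, adjusted p = 0.0335, limma). Its call ended without any line other than Mes1 or Epi1 (up to 0.0798), and the count of 1 became 2 without Epi1 and 0 without Mes2, Mes3, Mes4, Epi3, Epi4 or Epi5. Cd44, which holds xCT at the membrane, differed by -0.15 (adjusted p = 0.648), and the integrin chain Itgb1, a partner of Slc3a2, by -0.50 (SE 0.18, adjusted p = 0.0636). Itgb1 passed without Epi2 (-0.63, adjusted p = 0.018). Myc, whose product is known to drive several of these carriers, differed by 0.37 (adjusted p = 0.321).

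Of the 34 genes taken by rule that are not among the 10 carriers, 21 passed the threshold. With slide as a fixed block 1 of these 21, Nprl2, still passed. All 21 had the same sign within slide 2, where each comparison rests on Epi2 alone among the Epi lines. The calls had used the arrays of slide 2 as well, so the shared sign is no independent check. The fixed-block difference is the one within slide 2, since each of the other slides held a single group. With no filter on dim probes the calls of Slc43a1, Cth, Ddit4, Mthfd2 and Bsg ended as well (adjusted p of 0.0576 to 0.0653), those of Cth also with a floor of 16 (0.0514) and of Mthfd2 with normexp (0.054). With normexp the differences of Slc7a2 (-0.79), Slc43a1 (-0.22), Bcat2 (-0.38) and Ggt7 (1.27) were smaller and still passed.

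**Figure D5:**
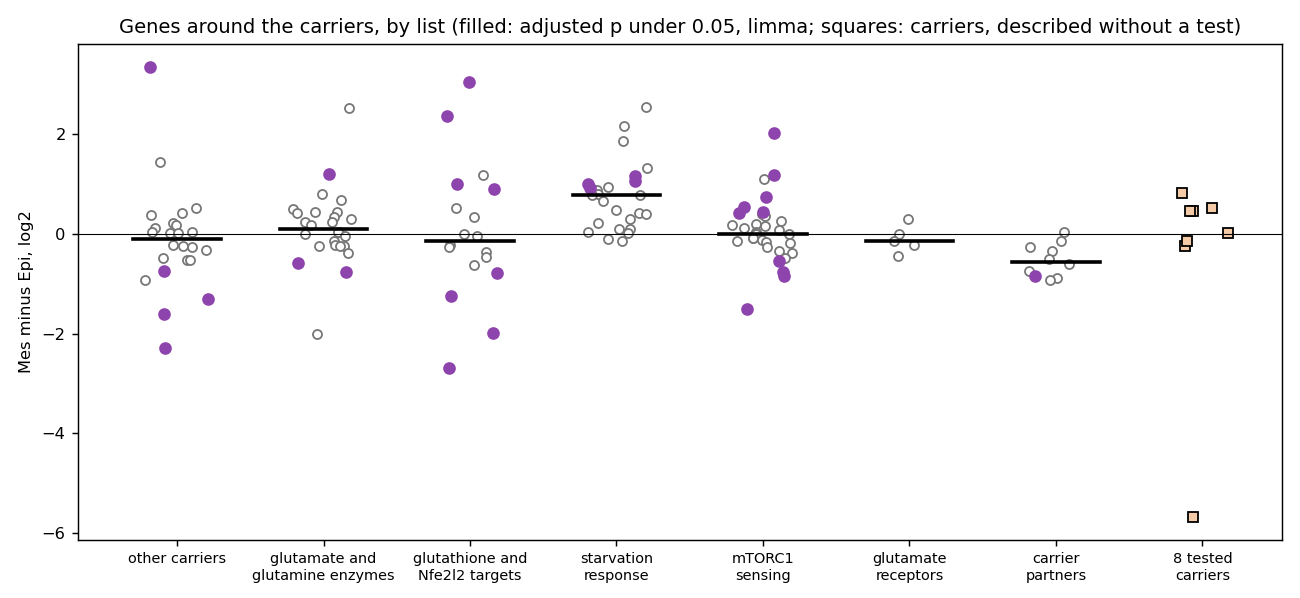
Difference between Mes and Epi in log2 signal for the tested genes of 7 lists, 1 point per gene on its brightest probe. Filled points passed an adjusted p of 0.05, black bars are list medians, and squares are the 8 tested carriers, which have no test. The medians are 0.78 for the starvation response and -0.55 for the partners of the carriers, and Slc1a3 lies at -5.69.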

How the data were processed

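The members and gene lists were chosen with earlier results of these data known. Total RNA labelled with Cy3 was hybridised to 1-colour arrays, per the labels. The deposited scanner files give intensity values from Agilent Feature Extraction 10.7, per the submitters' processing notes (10.7.3.1 per the file headers). The authors also deposited 2 identical tables of log2 values, with GeneSpring 11.0 named in the submitters' processing notes. Each column had a median of 5.07 and correlated at 0.9996 to 0.9999 with its own scanner values. They served as an alternative and gave probe names and mm9 coordinates.

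From the 43379 spots that were not controls, outlier spots (46 to 87 per array) were left out. The processed intensity of single spots was quantile-normalized, with a floor of 1 before log2. The log2 values of the spots of a probe were then averaged. Of 34893 named probes, 33405 had their symbols updated by Entrez ID, and 6281 had no name. A probe was tested if well above background on all 5 arrays of a group (24475 probes, of which 27 with an outlier spot were left out, leaving 24448). The brightest tested probe stood for a gene (13194 genes). limma 3.58.1 under R 4.3.3 (lmFit, eBayes) compared Mes with Epi. P-values were adjusted by Benjamini-Hochberg across all tested probes, with 0.05 as the threshold, and the fit was tested on simulated data. For a bound ("at least"), a dim array counted at its own value or at its lowest signal called above background, whichever was larger, before the group means were compared.

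Named genes were all 10 carriers, 13 fixed genes and up to 4 genes past the threshold per list, or 2 where none passed. One gene that the rule took is not reported here, while counts include it. Genes outside this rule (Slc6a6, Keap1, Srxn1, Mgst1, Abat, Prodh and the neighbours of Slc1a3) were chosen after their values were seen. Alternatives covered 75th percentile scaling, normexp with an offset of 50 (on median signals, as the mean-signal column was not used here), the deposited table, the dim-probe filter, the replicate number as a block, slide as a fixed or random block with statmod 1.5.0, the arrays of slide 2, a floor of 16, the mean over probes and each line left out. Intervals of precision rest on the number of arrays.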

Additional observations from a re-analysis of the deposited data

Results flagged for a closer look

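In 5 of 108 groups of 5 lines, over 54 probes, 1 line lay far from the others by Dixon's criterion, where chance gives about 1 in 20. Mes2 had the highest level of Slc1a1 among the Mes lines, at 0.94 with the nearest at 0.31, but no Mes array was above background. Mes3 had the highest level of Slc1a2, at 1.0 with the nearest at 0.42, again with no Mes array above background. Epi1 had the lowest level of Slc1a4 among the Epi lines, at 9.65 with the nearest at 10.2. Mes5 had the highest level of Osgin1 among the Mes lines, at 9.76 with the nearest at 8.40, and still lay below every Epi line. Epi1 had the lowest level of Bsg among the Epi lines, at 11.8 with the nearest at 12.5.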

How the results depend on the processing

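Slides 1 and 3 each held 1 group, so slide as a fixed block and slide 2 alone both set Mes3 and Mes4 against Epi2. The difference of Slc1a3 was -4.38 in both settings and did not pass the threshold there. Over all alternatives the difference of Slc1a3 ranged from -6.26 to -3.74 and kept its sign. The carriers past the threshold rose from 1 to 2 with no filter on dim probes, both lower in Mes. They also became 2 with slide as a random block, a floor of 16 and the mean over probes, with 1 higher and 1 lower each time. Over the array 3304, 4182, 3605 and 3732 genes passed in these settings, in that order. With a line left out the carriers past the threshold were 1 to 2. The choice of the carriers used these values, so nothing is read from their counts or calls here. Over the array 3754 genes became 94 with slide as a fixed block and 0 within slide 2, where 2291 had an unadjusted p under 0.05 in limma, and were 2683 to 4133 with a line left out. With slide as a fixed block the other carriers fell from 5 to 0, glutamate enzymes from 3 to 0, glutathione genes from 8 to 0, starvation genes from 4 to 0, sensing genes from 10 to 1 and partners from 1 to 0. The slide block and slide 2 alone both rest on Epi2 among the Epi lines, so calls lost there cannot tell slide from group. With slide as a random block starvation genes were 7 and partners 2. With no filter these were 2 and 0, and 75th percentile scaling gave 2 partners. With a line left out the counts were 3 to 6 for other carriers, 1 to 4 for glutamate enzymes, 2 to 7 for starvation genes, 0 to 1 for receptors and 0 to 2 for partners. The cause was not tested.

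Samples of the same replicate number hardly deviated together from their group means (correlations of 0.014 to 0.044). Such values cannot show whether lines of the same number share an origin, which the labels do not give. With the replicate block 2944 genes passed over the array, 1 carrier, 3 other carriers, 2 glutamate enzymes, 9 glutathione genes, 6 starvation genes, 8 sensing genes, 0 receptors and 0 partners. Of the 21 named calls 5 ended there, and 13 held with every single line left out. Among the carriers 4 changed sign under at least 1 alternative. None of the 21 named calls changed sign, in settings that reuse the arrays behind the calls. Nfe2l2, Gclm, Mtor and Itgb1, which had not passed, changed sign under at least 1 alternative.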
